A study of Mus musculus with 16 samples.

Results

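Lrp1 and 8 of its relatives in the low-density lipoprotein (LDL) receptor family were followed through RNA immunoprecipitations of the transcription factor Sox2 from mouse embryonic stem cells (mESC). The 9 genes, Lrp1, Lrp2, Lrp4, Lrp5, Lrp6, Lrp8, Lrp10, Vldlr and Sorl1, were chosen by symbol, and each matched 1 row of the 53379 genes in the deposited table through its identifier in the GENCODE mouse annotation. Lrp1 is the member that the study points out as enriched with Sox2, so its own enrichment is given as a description and its relatives supply the comparison. Male mESC without a stated line name were grown on gelatin in serum medium with LIF and the kinase inhibitors PD0325901 and CHIR99021, which all groups shared. RNA was fixed to protein either with UV light (UV-RIP) or with formaldehyde (fRIP), and Sox2 was pulled down with an antibody (IP). Each of the 4 groups, UV-RIP IP, UV-RIP input, fRIP IP and fRIP input, holds 4 libraries numbered 3 to 6, and an IP and an input with the same number came from the same plate. Input, the lysate before the pull-down, was the only control used here, so an IP with another antibody is not part of any value below.

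The LDL receptor family consists of single-pass membrane proteins that bind ligands through cysteine-rich repeats, carry them into the cell through clathrin-coated pits and release them in acidic endosomes. Several members are also signalling receptors. Lrp1 and Lrp2 (megalin) are very large scavenger receptors, Lrp5 and Lrp6 are the co-receptors of Wnt, Lrp4 is the receptor of agrin, and Lrp8 (also ApoER2) and Vldlr receive reelin. Sorl1 sorts proteins between the Golgi and endosomes, and Lrp10 is a small relative with a sorting role. UV light joins protein to RNA that it touches, whereas formaldehyde in addition links neighbouring proteins, and fRIP can thus bring down RNA that reaches Sox2 through a partner.

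The values are unique molecular identifiers (UMIs), which count each original RNA fragment a single time, summed over the whole gene body with its introns. Totals ran from 12456298 to 17281596 UMIs in UV-RIP and from 13627606 to 21211537 in fRIP. Levels below are UMIs per 1000000 UMIs of the library (CPM). The summed CPM of 8 pluripotency markers was 2282 to 2440 in the UV-RIP inputs and 3649 to 4137 in the fRIP inputs, against 7.59 to 11.4 for 12 markers of differentiated cells and fibroblasts over the inputs of both, of which Sox1 was at 0 in all 16 libraries. Of the pluripotency markers 7 were detected, and Sox2 itself had 0 UMIs in all 16 libraries. Its gene body lies entirely within that of Sox2ot on the same strand, and Sox2ot had 682 to 1601 UMIs, and the Sox2 transcript is therefore not measured here. Gm26917 took 18.4% to 22.3% of the UMIs in the UV-RIP IPs and 12.03% to 12.29% in their inputs, and scaling bears on every UV-RIP value. Input replicate 4 of fRIP stood apart with 2.81% of its UMIs on miscellaneous RNA genes against 0.349% to 0.620% in the other fRIP inputs, and fRIP calls that were lost without replicate 4 are named as such. In fRIP, IP replicate 5 carried 12.4% of its UMIs on Gm26917 against 5.44% to 6.81% in the other fRIP IPs.

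Lrp1 (ENSMUSG00000040249.15) is on chromosome 10 (GRCm38, minus strand, 127538161 to 127621148). Its gene body of 82988 bases, like those of all members except Lrp10 with 7361 bases, was longer than the median of 17272 bases over 21865 protein-coding genes. The longest annotated Lrp1 transcript has a GC content of 57.9%, higher than in 90.7% of protein-coding genes, and that of Lrp10 has 58.8%. Lrp4 and Lrp5 followed with 54.7% each, whereas Lrp8 (47.4%), Lrp6 (46.0%) and Vldlr (43.8%) were below the median of 48.7%. The opposite strand of 4 members is also annotated. The noncoding gene Lrp8os2 covers 22.8% of the Lrp8 gene body and had 94 to 344 UMIs, beside 224 to 978 for Lrp8, and the strand setting of the counting is not given in the sources used here, so reads of Lrp8 and Lrp8os2 may not be told apart. The antisense genes within Lrp1, Lrp10 and Sorl1 had at most 4 UMIs in any library.

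The RNA of these genes differs in how firmly it is predicted to fold, which is shown here because the study concerns the binding of Sox2 to structured RNA. Windows of 90 bases were taken every 30 bases inside the coding exons of each member and folded with RNAfold. Below is the window with the lowest predicted energy from Lrp1, which is enriched in both crosslinkers, from Lrp2 and Lrp8, which part between the crosslinkers, and from Lrp6, which was not enriched in either. Each is printed 5′ to 3′ on the gene's strand in DNA letters, with capitals for bases that are paired in the predicted fold.
Lrp1: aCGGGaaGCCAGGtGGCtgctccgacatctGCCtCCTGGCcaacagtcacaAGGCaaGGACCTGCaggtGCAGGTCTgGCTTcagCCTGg
Lrp2: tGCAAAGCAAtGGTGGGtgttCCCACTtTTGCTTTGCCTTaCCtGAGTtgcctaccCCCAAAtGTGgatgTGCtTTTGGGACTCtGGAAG
Lrp8: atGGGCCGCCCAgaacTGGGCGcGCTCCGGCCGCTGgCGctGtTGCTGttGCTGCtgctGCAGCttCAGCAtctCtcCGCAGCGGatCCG
Lrp6: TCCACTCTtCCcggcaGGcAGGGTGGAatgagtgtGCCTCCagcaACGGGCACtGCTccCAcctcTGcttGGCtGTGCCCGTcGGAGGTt
The Lrp1 window is in exon 10 at chr10:127593377-127593466 on the minus strand, with a predicted energy of -38.3 kcal/mol. The Lrp2 window (exon 39, chr2:69483254-69483343, minus strand) had -37.7 kcal/mol and the Lrp8 window (exon 1, chr4:107802413-107802502, plus strand) had -49.7 kcal/mol. The Lrp6 window (exon 12, chr6:134479566-134479655, minus strand) had -39.9 kcal/mol.
Over all windows of a gene the median predicted energy was lowest in Lrp10 at -27.65 kcal/mol, then in Lrp1 at -24.7, Lrp8 at -24.6, Lrp5 at -24.3 and Lrp4 at -23.9, and it was highest in Vldlr at -18.9 kcal/mol. Lrp10, with the lowest median, was not higher in the IP of either crosslinker, whereas Lrp1, Lrp8, Lrp5 and Lrp4 had the largest fRIP fold changes of the family. Lrp2, with a median of -20.7 kcal/mol, was among the highest in UV-RIP. The counts span whole gene bodies and do not place the recovered RNA in any of these windows, and the part of folding in the enrichment was not tested.

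In the inputs Lrp10 had the highest level per length and Vldlr the lowest. Lrp10 had 2.84 CPM per kb of gene body in the UV-RIP input and 3.07 in the fRIP input. Lrp6 was next with 1.76 and 1.93 CPM per kb, whereas Vldlr had 0.0840 and 0.109. In UV-RIP input the order between them was Lrp5 (1.04 CPM per kb), Lrp1 (0.939), Sorl1 (0.482), Lrp8 (0.369), Lrp2 (0.270) and Lrp4 (0.223), and the libraries of Lrp2 and Lrp4 were the only neighbours to overlap. In fRIP input Lrp1 stood above Lrp5 with 1.60 CPM per kb and Lrp8 was next to last with 0.287, and the values of Sorl1, Lrp2 and Lrp4 overlapped from one neighbour to the next. In the fRIP IP Lrp1 had the highest mean of the family at 2.54 CPM per kb, overlapping with Lrp10 at 2.45.

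**Figure D1:**
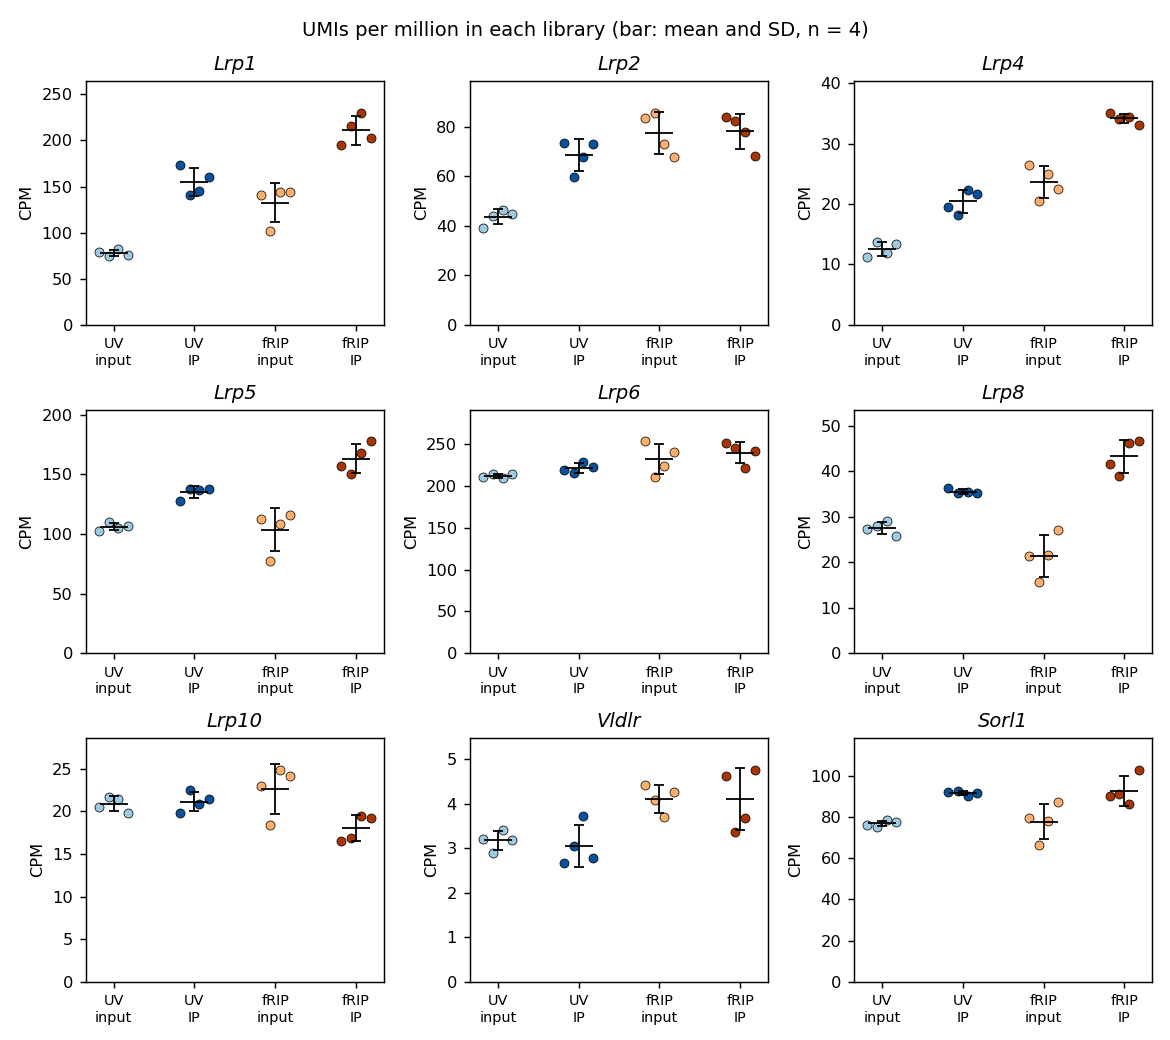
Level of each member in CPM, in the UV-RIP and fRIP input and IP libraries; points are the 4 libraries of a group in the order of their numbers and bars are the mean and SD. In UV-RIP the Lrp1, Lrp2 and Lrp4 IP libraries all lie above their inputs, whereas in fRIP the Lrp2 libraries overlap and those of Lrp8 are far apart.

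UV-RIP asked which RNAs were recovered with Sox2 under a crosslinker of direct contacts, and Lrp1, Lrp4 and Lrp2 were enriched there. Lrp1 had 173, 141, 145 and 161 CPM in the IP of replicates 3, 4, 5 and 6, and 78.8, 74.9, 82.5 and 75.6 CPM in the inputs. Every IP library was above every input library, and the fitted log2 fold change of 0.99 (SE 0.044) was larger than that of 99.96% of the 10208 genes that averaged at least 100 UMIs.

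Lrp2, on the minus strand of chromosome 2 from 69424340 to 69586065, had 73.3, 59.8, 67.7 and 73.2 CPM in the UV-RIP IP and 39.3, 44.1, 46.3 and 44.9 CPM in the input. The groups did not overlap, and the log2 fold change was 0.65 (SE 0.050, adjusted p = 6.04e-37, edgeR quasi-likelihood test). Lrp4, on the plus strand of chromosome 2 from 91457511 to 91513779, had 19.5, 18.2, 22.3 and 21.6 CPM in the IP and 11.2, 13.7, 11.96 and 13.4 CPM in the input. These did not overlap either, and the log2 fold change was 0.70 (SE 0.075, adjusted p = 1.74e-19, edgeR). The SE and p of these fits draw on a spread shared across genes. The SD of the log2 ratios of the 4 plates alone was 0.15 for Lrp1, 0.20 for Lrp2 and 0.21 for Lrp4. A gene was called at a fold above 1.5 and an adjusted p below 0.05 over all 22936 genes tested, by which 0.68% of them were higher in the UV-RIP IP and 5.53% lower. Of the 9 members 3 were called higher, Lrp1 among them, and 0 lower, by edgeR or by DESeq2, with 0 members lower at an unadjusted p below 0.05. When the fold of 1.5 was itself tested, by which 0.0741% of all genes were higher, only Lrp1 of the 9 passed, and Lrp2 fell under the fold without replicate 3, at 0.57.

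Of the Wnt co-receptor pair, Lrp5 had the larger fold change in UV-RIP, but neither was called and the difference was not tested. Lrp5, on the minus strand of chromosome 19 from 3584828 to 3686564, had 128, 138, 137 and 138 CPM in the IP and 103, 109.6, 105 and 107 CPM in the input, a log2 fold change of 0.35 (adjusted p = 3.45e-15, edgeR) that lay below the fold used. Lrp6, on the minus strand of chromosome 6 from 134446476 to 134566965, had the most UMIs of the family, with 215 to 229 CPM in the IP and 209.5 to 214 CPM in the input. Its log2 fold change was 0.06 (95% interval -0.02 to 0.14, adjusted p = 0.245, edgeR), an interval whose upper bound lies well under the fold used. Every IP library of Lrp6 was nonetheless slightly above every input library, and under trimmed-mean scaling of the library sizes the value was 0.24.

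Neither the reelin receptors nor the sorting members reached the fold used in UV-RIP, although Lrp8 and Sorl1 were above their inputs. Lrp8 (plus strand of chromosome 4, 107802261 to 107876840) had 36.3, 35.2, 35.4 and 35.2 CPM in the IP and 27.4, 27.9, 29.0 and 25.7 CPM in the input, a log2 fold change of 0.37 (SE 0.058, adjusted p = 2.06e-09, edgeR). Sorl1 (minus strand of chromosome 9, 41964720 to 42124297) had 90.2 to 92.5 CPM in the IP and 75.3 to 78.4 CPM in the input, a log2 fold change of 0.25 (SE 0.045, adjusted p = 1.46e-07, edgeR). For both, every IP library was above every input library. Lrp10 (plus strand of chromosome 14, 54464137 to 54471497) was at 0.02 (95% interval -0.11 to 0.15) and Vldlr (plus strand of chromosome 19, 27216484 to 27254231), with only 36 to 61 UMIs per UV-RIP library, at -0.05 (95% interval -0.35 to 0.24). The median log2 fold change of the 9 members in UV-RIP was 0.35, beside -0.17 over all genes tested. Trimmed-mean (TMM) scaling moved the median of all genes to 0.01 and that of the members to 0.53, and under it Vldlr turned to 0.12 while the same 3 members were called.

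**Figure D2:**
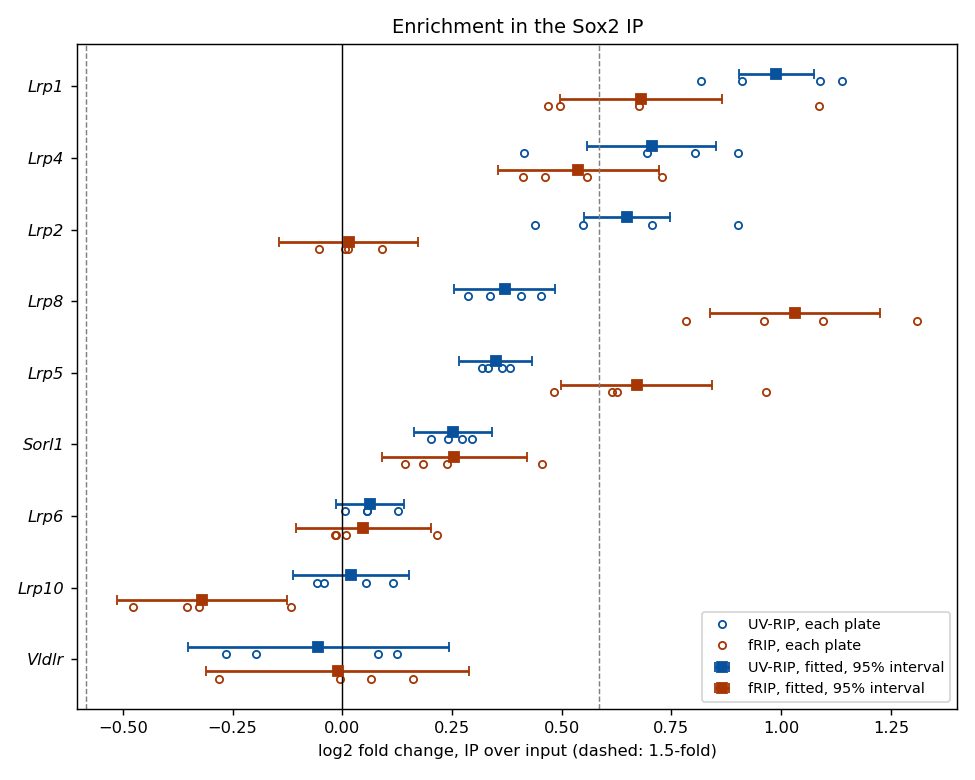
Log2 fold change of IP over input for each member in UV-RIP (blue) and fRIP (brown), with the fitted value and its 95% interval as squares and the ratio in each of the 4 plates as open circles; dashed lines mark a fold of 1.5. Lrp1 leads in UV-RIP at 0.99, and Lrp8 leads in fRIP at 1.03, while Lrp6, Lrp10 and Vldlr are near or below 0 in both.

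Under formaldehyde the order changed, with Lrp8 first and Lrp2 no longer above its input. Lrp8 had 41.5, 39.1, 46.1 and 46.6 CPM in the fRIP IP and 21.3, 15.7, 21.6 and 27.1 CPM in the input. All 4 IP libraries were above all inputs, and the log2 fold change was 1.03 (SE 0.094, adjusted p = 5.64e-09, edgeR), larger than that of 98.0% of the genes averaging at least 100 UMIs. Lrp5 had 157, 150.2, 168 and 178 CPM in the fRIP IP and 112, 76.9, 109 and 116 CPM in the input, a log2 fold change of 0.67 (SE 0.083, adjusted p = 4.90e-07, edgeR).

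Lrp1 had 195, 216, 230.0 and 203 CPM in the fRIP IP and 141, 102, 144 and 144 CPM in the input, and its log2 fold change was 0.68 (SE 0.090). Of all genes tested 8.8% were called higher in the fRIP IP and 10.7% lower, and 3 of 9 members were called higher, namely Lrp8, Lrp1 and Lrp5. Without replicate 4, whose fRIP input was the low one for Lrp1, Lrp5 and Lrp8, the log2 fold changes were 0.55 for Lrp1, 0.57 for Lrp5 and 0.94 for Lrp8, so that only Lrp8 of the 9 was called. Removal of a smooth trend of fold change on gene length also left only Lrp8, at 0.74, with Lrp1 at 0.36 and Lrp5 at 0.30.

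Lrp4, the agrin receptor, had 35.1, 34, 34.4 and 33.1 CPM in the fRIP IP and 26.4, 20.5, 25.0 and 22.5 CPM in the input. The groups did not overlap, and its log2 fold change of 0.54 (SE 0.089, adjusted p = 2.39e-05, edgeR) was just below the fold used. Lrp2 had 84.1, 82.5, 78.0 and 68.4 CPM in the fRIP IP and 83.7, 85.6, 73.2 and 67.7 CPM in the input. Its groups overlapped almost fully, and the log2 fold change was 0.01 (95% interval -0.14 to 0.17, adjusted p = 0.917, edgeR). After removal of the length trend it was -0.47.

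Sorl1 had a log2 fold change of 0.25 in fRIP (SE 0.080, adjusted p = 0.0124, edgeR), with 86.2 to 103 CPM in the IP and 66.4 to 87.2 CPM in the input, and the fold change turned to -0.23 after removal of the length trend. Lrp6 was at 0.05 (95% interval -0.11 to 0.20), and at -0.37 after that removal, and Vldlr at -0.01 (95% interval -0.31 to 0.29). Lrp10 was the only member with an adjusted p below 0.05 on the lower side in fRIP, at 16.5, 16.9, 19.5 and 19.3 CPM in the IP and 23.0, 18.3, 24.9 and 24.1 CPM in the input, with a log2 fold change of -0.32 (SE 0.093, adjusted p = 0.00754, edgeR). It was lower in the IP in each of the 4 plates but did not reach the fold used, and 0 of 9 members were called lower by edgeR or DESeq2. The median of the 9 members in fRIP was 0.25, beside -0.03 over all genes tested, and it was -0.14 after removal of the length trend.

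**Figure D3:**
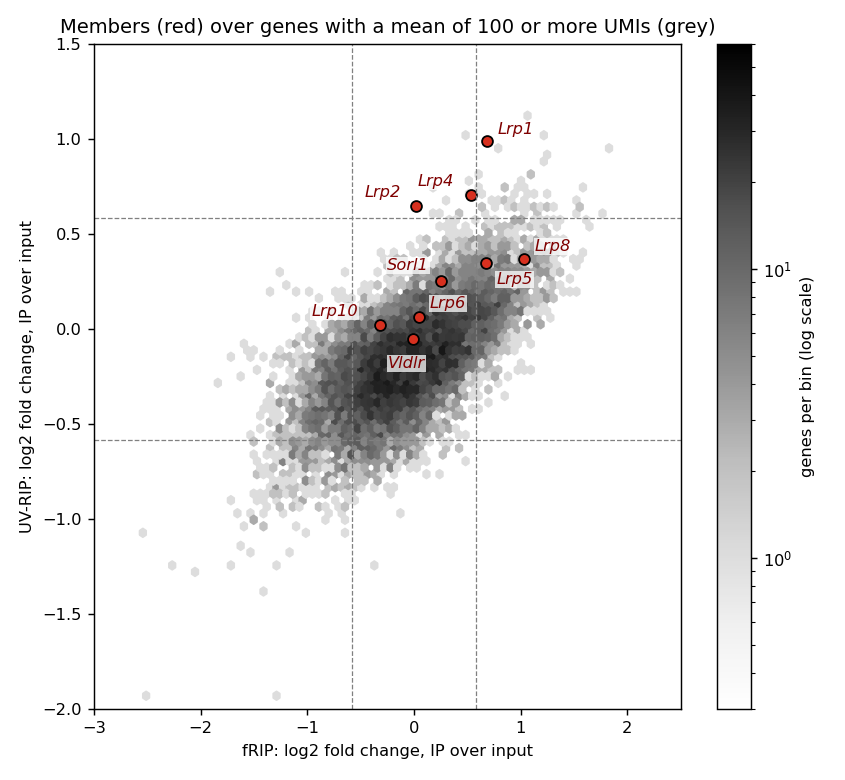
UV-RIP log2 fold change of IP over input against that in fRIP, for the 9 members (red, named) and, as grey bins, the 10208 genes averaging at least 100 UMIs; dashed lines mark a fold of 1.5 and the grey scale is logarithmic. Vldlr has fewer UMIs than the grey genes. Lrp1 lies at the upper edge of the cloud in UV-RIP, Lrp2 is high in UV-RIP at an fRIP value of 0.01, and Lrp8 is high in fRIP with a UV-RIP value of 0.37.

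Set against its relatives plate by plate, Lrp1 stood above most of the family under both crosslinkers, with Lrp8 above it in fRIP. The log2 ratio of IP to input of Lrp1 minus the median over the 7 relatives averaging at least 100 UMIs was 0.82, 0.58, 0.53 and 0.72 in the UV-RIP plates, a mean of 0.66 ± 0.13 (SD, n = 4). In the fRIP plates it was 0.28, 0.63, 0.53 and 0.26, a mean of 0.43 ± 0.18 (SD, n = 4). These within-plate differences do not depend on the library size, and they carry no test because Lrp1 was pointed out for this enrichment. In UV-RIP Lrp1 exceeded Lrp4 in 3 of 4 plates and every other relative in all 4. In fRIP it was below Lrp8 in all 4 plates, by 0.36 ± 0.12, exceeded Lrp5 in 2 of 4 plates and Lrp4 in 3 of 4, and was above the other 5 relatives in each plate.

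The change in enrichment from UV-RIP to fRIP was tested over all 16 libraries by an interaction term, with an adjusted p below 0.05 and no fold. By this test 18.6% of all genes had a larger enrichment in fRIP and 8.07% a smaller one, with a median difference of 0.15. Among the 10208 genes averaging at least 100 UMIs, a depth that all members except Vldlr reach, the shares were 34.5% and 15.9%. Of the 9 members 2 were larger and 3 smaller in fRIP, Lrp1 among the latter. Both directions together, this is near the share of genes of like depth, although more of those genes were larger than smaller. Lrp8 was larger in fRIP by 0.66 on the log2 scale (SE 0.11, adjusted p = 5.23e-05, edgeR interaction) and Lrp5 by 0.32 (SE 0.091, adjusted p = 0.00929, edgeR interaction). Lrp2 was smaller in fRIP, with a difference of -0.63 (SE 0.096, adjusted p = 1.62e-05, edgeR interaction), and Lrp10 also, with -0.34 (SE 0.11, adjusted p = 0.0232, edgeR interaction).

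The Lrp1 difference was -0.31 (95% interval -0.53 to -0.08), a description for the reason above, and its adjusted p over the alternatives ran from 9.25e-10 to 0.379. The calls for Lrp8 and Lrp2 held in all 12 alternatives of this comparison, whereas those for Lrp5 and Lrp10 were lost in 4 and 6 of them. Lrp5 lost its call under TMM scaling (0.20), with library sizes that leave out Gm26917 and Gm42418, without the replicate block and after removal of the length trend (-0.01). For Lrp4 the difference was -0.17 (95% interval -0.41 to 0.08), for Lrp6 -0.01 (-0.18 to 0.15), for Sorl1 0.00 (-0.18 to 0.18) and for Vldlr 0.05 (-0.36 to 0.46), where the first value is the estimate. Crosslinker and plate cannot be told apart in this design, because each plate received a single crosslinker.

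The starting material of the members differed as well. Over all genes 10.6% were called higher in the fRIP input than in the UV-RIP input and 9.44% lower, and 3 of 9 members were higher, Lrp4 by a log2 value of 0.91 (SE 0.11, adjusted p = 6.21e-06, edgeR), Lrp2 by 0.83 (SE 0.089, adjusted p = 2.60e-06, edgeR) and Lrp1 by 0.77 (SE 0.099, adjusted p = 1.53e-05, edgeR). Every fRIP input was above every UV-RIP input for these 3 genes and for Vldlr, although the share of all genes without such overlap was not counted. The 3 calls held in all 9 alternatives. The other members were not called, with Vldlr at 0.37 (adjusted p = 0.0553, edgeR), Lrp8 at -0.36 (adjusted p = 0.0329, edgeR), Lrp6 at 0.13, Lrp10 at 0.11, Sorl1 at 0.02 and Lrp5 at -0.03. In bulk lysates a smaller number of cells that hold an RNA and less of that RNA per cell cannot be told apart, nor can a difference in level and a difference in recovery from the lysate. Of the 7 pluripotency markers tested, 4 were also higher in the fRIP inputs, with a median log2 value of 0.97. Of the 10 tested markers of differentiated cells and fibroblasts, 2 were higher and 1 lower, with a median of 0.72 at low counts. The part of both lists in the input differences of the members was not tested.

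In the IPs themselves the log2 ratio of the mean CPM of fRIP over UV-RIP was 0.74 for Lrp4, 0.44 for Lrp1, 0.43 for Vldlr, 0.29 for Lrp8, 0.27 for Lrp5, 0.19 for Lrp2, 0.12 for Lrp6, 0.02 for Sorl1 and -0.23 for Lrp10. These ratios carry no test, and the larger share of Gm26917 in the UV-RIP IPs lowers the CPM of all other genes there. For Lrp2 the input thus differed by 0.83 and the IP by 0.19. The difference between the enrichments and the difference between the inputs share the input libraries, so a high fRIP input by itself lowers the first, and the 2 sets of values are not independent.

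**Figure D4:**
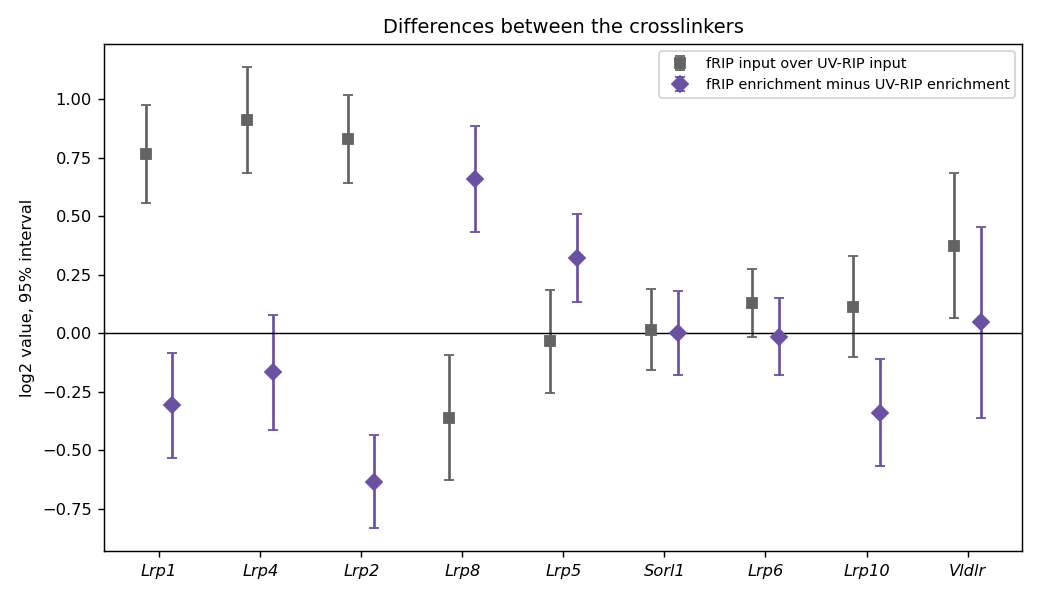
For each member, the fitted log2 difference between the fRIP and UV-RIP inputs (grey squares) and the difference between the fRIP and UV-RIP enrichments (violet diamonds), each with its 95% interval; both use the same input libraries. Lrp1, Lrp4 and Lrp2 have input differences of 0.77 to 0.91, and the enrichment differences run from -0.63 in Lrp2 to 0.66 in Lrp8.

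The remaining genes of the pathway were taken from lists chosen by function. Among 4 further receptors of the family, none was called in UV-RIP with all replicates and total UMIs as library size by edgeR or DESeq2. Of these, 2 had an unadjusted p below 0.05 on the higher side. Lrp3 was called there under TMM scaling, with library sizes that leave out Gm26917 and Gm42418, and by DESeq2 with its own size factors. It was also called by edgeR with total UMIs without replicate 3 and without replicate 6. In fRIP Ldlrad3 was called higher, with a log2 fold change of 1.08 (SE 0.082, adjusted p = 4.97e-10, edgeR), beside 0.33 in UV-RIP. After removal of the length trend it was no longer called, and Lrp3 was called higher and Lrp1b lower.

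Of 12 listed ligands 11 were tested, all except Sost, and 6 were called lower in the fRIP IP and none higher, beside 10.7% lower over all genes and 15.4% over those averaging at least 100 UMIs. The median log2 fold change of the 11 was -0.62, and 3 of them (App, Reln and Agrn) had positive values. Apoe, the apolipoprotein that several members bind, was at -1.01 (SE 0.076, adjusted p = 3.69e-10, edgeR), and Calr, the chaperone calreticulin that also binds Lrp1 at the cell surface, at -0.98 (SE 0.075, adjusted p = 4.97e-10, edgeR). In UV-RIP none of the 11 was called with total UMIs by edgeR or DESeq2, with 2 higher and 1 lower at an unadjusted p below 0.05. Agrn, the ligand of Lrp4, had 0.57 in UV-RIP and 0.58 in fRIP, in both just below the fold used. In both it was called under TMM scaling, with library sizes that leave out Gm26917 and Gm42418, and by DESeq2 with its own size factors. TMM scaling left 4 ligands called lower in fRIP, and without replicate 4 the call of A2m was lost and Dkk1 was called lower.

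Chaperones and proteases of the receptors had 4 of 10 genes called lower in fRIP and none higher. Over all genes 10.7% were lower and 8.8% higher, and 15.4% and 11.5% over those averaging at least 100 UMIs. Hsp90b1, an endoplasmic reticulum chaperone, was at -1.27 (SE 0.083, adjusted p = 5.96e-11, edgeR) and Psenen, a subunit of gamma-secretase, at -1.25 (SE 0.17, adjusted p = 2.46e-06, edgeR). Mesd, the chaperone of Lrp5 and Lrp6, was among the 4 at -0.65, and the call of Ncstn was lost without replicate 4. In UV-RIP none of the 10 was called by edgeR or DESeq2, and 0 were higher and 6 lower at an unadjusted p below 0.05. Under TMM scaling these were 3 and 2, and the median of the list went from -0.18 to -0.003, as that of all genes went from -0.17 to 0.01.

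Of the endocytic adaptors, 1 of 12 was called higher in fRIP and 2 lower. These counts are near the shares over all genes, 8.8% and 10.7%, and over those averaging at least 100 UMIs, 11.5% and 15.4%. Dab1, the adaptor through which Lrp8 and Vldlr pass on the reelin signal, was at 0.80 (SE 0.084, adjusted p = 4.29e-08, edgeR). Vps35, a retromer subunit, was at -0.85 and Cltc, the clathrin heavy chain, at -0.77. Reln, the ligand, was at 0.43 (adjusted p = 0.0714, edgeR) and was not called. The call of Dab1 was lost after removal of the length trend, and those of Vps35 and Cltc after removal of the trend on transcript GC, an alternative chosen after seeing the data. None of these 12 adaptors was called in UV-RIP by edgeR or DESeq2, with 2 higher and 6 lower at an unadjusted p below 0.05, and 4 of each under TMM scaling. In the inputs 5 of the 12 adaptors were higher in fRIP, a larger share than the 10.6% of all genes.

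Among 12 Wnt partners of Lrp5 and Lrp6, 2 were called higher in fRIP and 2 lower. The shares were 8.8% and 10.7% over all genes, and 11.5% and 15.4% over those averaging at least 100 UMIs, near these counts. Dvl1, which relays the signal from the receptors, was at 0.68 (SE 0.090, adjusted p = 1.20e-06, edgeR) and Kremen1, a Dickkopf receptor, at 0.62. The Wnt receptors Fzd7 and Fzd2 were at -0.70 and -0.63. Without replicate 4 only Fzd7 of the 4 was called, after removal of the length trend only Dvl1, and after removal of the GC trend only Fzd7 and Fzd2. None of the 12 was called in UV-RIP by edgeR or DESeq2, with 2 higher and 3 lower at an unadjusted p below 0.05, and 6 higher and 1 lower under TMM scaling.

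The pattern of Lrp1 over the 16 libraries was compared with that of 10207 other genes averaging at least 100 UMIs, by the Pearson correlation of log2 CPM. The most alike were Lama5 (0.98), which encodes a laminin chain, Brd2 (0.98), a bromodomain protein, Agrn (0.97), Hspg2 (0.97), which encodes perlecan, and Plxnb2 (0.97), a semaphorin receptor. Lrp4 was the most alike of the relatives at 0.92, in place 42, followed by Lrp2 at 0.80 and Lrp5 at 0.79, and Lrp10 was least alike at -0.30. These libraries share 2 crosslinkers, plates and the IP step, so the correlations describe the pattern only.

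Plexins and the Notch, Jagged and Celsr genes, which also encode large receptors and their ligands, were counted beside the LDL receptors. These lists, too, were chosen with earlier results of these data known. Over all genes 0.68% were called higher in UV-RIP and 8.8% in fRIP. Of 9 plexins, 2 were called higher in UV-RIP, Plxnb1 at 1.00 and Plxnb2 at 0.69, and 3 in fRIP, of which only Plxnb1 was called without replicate 4. Of 9 Notch, Jagged and Celsr genes, 3 were called higher in each crosslinker, namely Celsr3, Jag2 and Celsr1, although Celsr3 lost its fRIP call without replicate 4 and with no replicate block, and removal of the length trend left only Jag2 there. Their median log2 fold changes in UV-RIP were 0.41 and 0.48, beside 0.35 for the LDL receptor members. Under TMM scaling 5 plexins and 6 Notch, Jagged and Celsr genes were called higher in UV-RIP, beside 3 LDL receptor members, while the share over all genes went from 0.68% to 2.2%. Among genes averaging at least 100 UMIs, 34.5% passed the interaction test with a larger and 15.9% with a smaller enrichment in fRIP. The test was passed by 5 LDL receptor members, 1 plexin and 0 Notch, Jagged and Celsr genes, of which 2 were smaller in fRIP at an unadjusted p below 0.05. These counts moved with the scaling, to 4, 2 and 3 under TMM and with library sizes that leave out Gm26917 and Gm42418, and they were 2, 1 and 0 without the replicate block. The difference between the families was not tested.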

How the data were processed

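RNA from Sox2 IP and input of male mESC was sequenced in 4 groups of 4 libraries. The authors mapped reads with STAR to mm10, discarded reads without a unique position and deposited raw counts of UMIs per gene body (GENCODE vM16, featureCounts); versions and the strand setting are not given in the sources used here.

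Counts were tested in R 4.3.3 with edgeR 4.0.16 (quasi-likelihood, Benjamini-Hochberg adjustment) on genes reaching 3 UMIs in any library, with total UMIs as library size. The SE and p of these fits draw on a spread shared across genes and do not measure the spread of the plates alone. The replicate number was a block, since IP and input with the same number share a lysate by the methods. Deviations of same-numbered libraries correlated at 0.03 to 0.44 in UV-RIP and 0.11 to 0.60 in fRIP. Replicates differed beyond sampling noise (chi-square per degree of freedom of at least 1.72). The inputs were compared without a block. All 9 members and up to 2 genes per direction of each list were named, as were the 5 genes most like Lrp1; Mesd, Reln, Lrp3, Lrp1b, A2m, App, Dkk1, Ncstn, Sost, Sox2ot and Lrp8os2 were named after their values were seen. Further genes of 2 lists and 1 window sequence are not reported here. Members and lists were chosen with earlier results of these data known. Symbols came from GENCODE vM21 (GRCm38), by identifier and version for 50604 genes and by identifier alone for 2670. Folding used RNAfold 2.7.2 and alternatives DESeq2 1.42.0. The scripts were tested on simulated data.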

Additional observations from a re-analysis of the deposited data

Results flagged for a closer look

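Of 54 sets of 4 values examined, 4 held a library far from the other 3, and chance flags about 1 in 20. Lrp1 had 102 CPM in fRIP input replicate 4 against 141 to 144 in the other inputs, in the library that also stands apart in its miscellaneous RNA. In the same plate the log2 ratio of IP to input of Lrp6 was 0.22, against -0.02 to 0.01 in the others. In UV-RIP IP replicate 3, Lrp5 had 128 CPM against 137 to 138, and Lrp8 had 36.3 CPM against 35.2 to 35.4.

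The enrichment of 5 of 9 members differed between the crosslinkers by the interaction test, which 34.5% of genes averaging at least 100 UMIs passed with a larger and 15.9% with a smaller enrichment in fRIP. The difference, fRIP minus UV-RIP on the log2 scale, was 0.66 for Lrp8, 0.32 for Lrp5, -0.31 for Lrp1, -0.34 for Lrp10 and -0.63 for Lrp2. The Lrp1 value is a description, and the calls for Lrp1, Lrp5 and Lrp10 were each lost in several alternatives.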

How the results depend on the processing

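Of 477 comparisons of a single gene with its value under an alternative, 441 kept their call or stayed uncalled, 25 lost their call and 9 gained one. Another 2 changed sign with a call in either fit. Sign changes between uncalled values are among the 441, as for Lrp6 in UV-RIP, from 0.06 to -0.02 after removal of the length trend. In the inputs the 3 calls held under every alternative run, and Lrp1 minus its relatives stayed within 1 SD. With no fold required, 6 members were higher in UV-RIP, where 6.6% of all genes were, 5 in fRIP, where 17.6% were, and 1 (Lrp10) lower in fRIP, where 21.9% were. With the fold of 1.5 tested, 1 was higher in each crosslinker, beside 0.0741% of all genes in UV-RIP and 3.17% in fRIP. Removal of the length trend left 1 higher in fRIP, and 1 (Lrp8) larger and 5 smaller in the difference between crosslinkers, where Lrp5 turned to -0.0096 and Sorl1 to -0.41. Of all 22936 genes, 1545 were then higher in fRIP, and 2069 were larger and 1579 smaller in the difference. For that difference TMM scaling, library sizes that leave out Gm26917 and Gm42418, and the fit with no replicate block left 1 member larger, and the fit with no replicate block left 1 smaller, Lrp2. With 1 replicate left out in turn, 1 to 3 members were higher in fRIP, the lowest without replicate 4, and 1 to 4 were smaller in the difference, where without replicate 3 or 6 Lrp1 and Lrp10 lost their calls. In the inputs the plates of the crosslinkers differ, and adding a replicate block changed no call of a member. Of the markers of differentiated cells and fibroblasts, 1 rather than 2 was then called higher.

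The UV-RIP call of Lrp2 was lost with the length trend removed (0.55) and without replicate 3. The fRIP call of Lrp1 was lost after removal of a trend on transcript GC (0.55), an alternative chosen after seeing the data. The difference for Lrp1 had an adjusted p of 0.088 with no replicate block and of 0.0623 with a robust edgeR fit, which had been run first and was replaced by the standard fit. The cause of these changes was not tested. A trend on GC content of the gene body was planned and was not run here. Depth limits Vldlr most, with 36 to 86 UMIs per library.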
